A study of Mus musculus with 14 samples.

Results

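The 36 genes described here mark the endothelial cells that line blood vessels, and their RNA was followed in whole mouse tumours. They were taken from a deposited table of read counts as the rows whose Ensembl mouse gene identifier carries one of 36 listed symbols in GENCODE M21, which gave 36 of the table's 37409 genes. All 36 passed the filter on low counts, among 17141 genes that were tested. The list holds 4 genes of sprouting tip cells, 11 genes of stable vessels, 5 transcription factors and 16 other surface, junction and receptor genes or secreted factors.

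C57BL/6 mice carried subcutaneous tumours, and 14 bulk RNA libraries were grouped by the labels. At day 7, 4 libraries came from tumours injected with 2E'/PTX/siPD-L1 and 4 from tumours injected with 2E'/PTX/siNeg. Another 3 came from tumours injected with D5W, which is 5% dextrose in water. A further 3 libraries came from untreated tumours at day 0. The injections went into tumours of about 150 mm3. Here 2E' is read as a polymer, which the series title calls immunoactive, and PTX as paclitaxel, a drug that stabilises microtubules, and siPD-L1 and siNeg are read as an siRNA against PD-L1 and a control siRNA. The protocol names B16F10, a mouse melanoma line, while the cell type label names CT26, a mouse colon carcinoma line. A set of 7 melanocyte-lineage genes such as Dct and Pmel summed to 17037 to 21057 CPM (counts scaled to library size) in the 14 libraries. Both siRNA groups received polymer and PTX and no group received PTX without siRNA here, so the parts of that mixture cannot be told apart. Day 0 and day 7 also differ in tumour age, so injection and age cannot be told apart in any comparison with day 0. The labels do not say that each library is a separate mouse, so the p-values measure only the spread between these libraries.

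Endothelial cells form sprouts when vascular endothelial growth factor (VEGF) reaches them. The cell that leads a sprout, the tip cell, makes Dll4, which signals through Notch to its neighbours and holds them back as stalk cells, while the angiopoietin receptor Tek (Tie2), VE-cadherin (Cdh5) and claudin 5 hold settled vessels together. Transcription factors of the ETS family (Erg, Fli1) and the SoxF family (Sox7, Sox17, Sox18) set the identity of these cells, and tumours are known for leaky, unevenly mature vessels.

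Library totals lay between 60.2 M and 85.9 M counts, and values are CPM after TMM scaling, which adjusts each library's total. The gene that the siRNA targets, Cd274 (PD-L1), stood at 15.8, 16.5, 17.0 and 20.8 CPM in the siPD-L1 libraries, against 17.6, 31.6, 28.8 and 21.6 CPM in the siNeg libraries. Those groups overlapped, and the log2 fold change of siPD-L1 against siNeg was -0.51 ± 0.16 (SE; edgeR adjusted p = 0.515). A gene is called changed when its p from edgeR's quasi-likelihood test, adjusted by Benjamini-Hochberg over all 17141 tested genes, is under 0.05. Comparisons that share the D5W or the day 0 libraries are not independent of each other.

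The members covered a wide range of abundance. Per kilobase of exon, the median level over 14 libraries was 51.2 CPM per kb for Eng (endoglin, a co-receptor for TGF-beta and BMP ligands) and 6.24 CPM per kb for Angpt2 (angiopoietin 2, which loosens vessels by opposing Tek signalling). The adherens-junction gene Cdh5 had 1.16 CPM per kb and Pecam1 (CD31, an adhesion molecule of endothelial junctions) 0.736 CPM per kb. At the low end, Clec14a (a lectin-like endothelial receptor) had 0.0285 and Sox17 0.0252 CPM per kb. Pecam1 and Cdh5 were counted in all 14 libraries, so the defining markers of endothelium were present throughout. The 35 members other than Eng summed to 119 to 161 CPM in siPD-L1, 101 to 138 CPM in siNeg, 132 to 162 CPM in D5W and 98.7 to 118 CPM in day 0 libraries. Vwf and Angpt2 were the largest parts of this sum, at 47.6 and 21.9 of 111 CPM in siNeg replicate 1. That library had the lowest mean log2 CPM of the 36 members, -0.105, so the sum and that mean order the libraries differently.

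Spread over the libraries separated the list. Eng, Angpt2, Ecscr and Icam2 (an adhesion molecule of resting endothelium) varied by less than 2-fold between the highest and the lowest of 14 libraries, and Eng by 1.42-fold. At the other end 18 members varied by at least 4-fold, among them Sox7 by 27.6-fold, Cd34 by 8.86-fold, Esm1 by 6.73-fold and Cdh5 by 6.65-fold. The other 14 members lay between these limits. D5W replicate 3 held the highest value of all 14 libraries for 15 members, and siNeg replicate 1 held the lowest for 14 members. The D5W mean was the highest of the 4 group means for 26 members, and the siNeg mean was the lowest of the 3 day 7 means for 31 members. For 26 members the siPD-L1 mean lay above the siNeg mean and below the D5W mean.

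**Figure D1:**
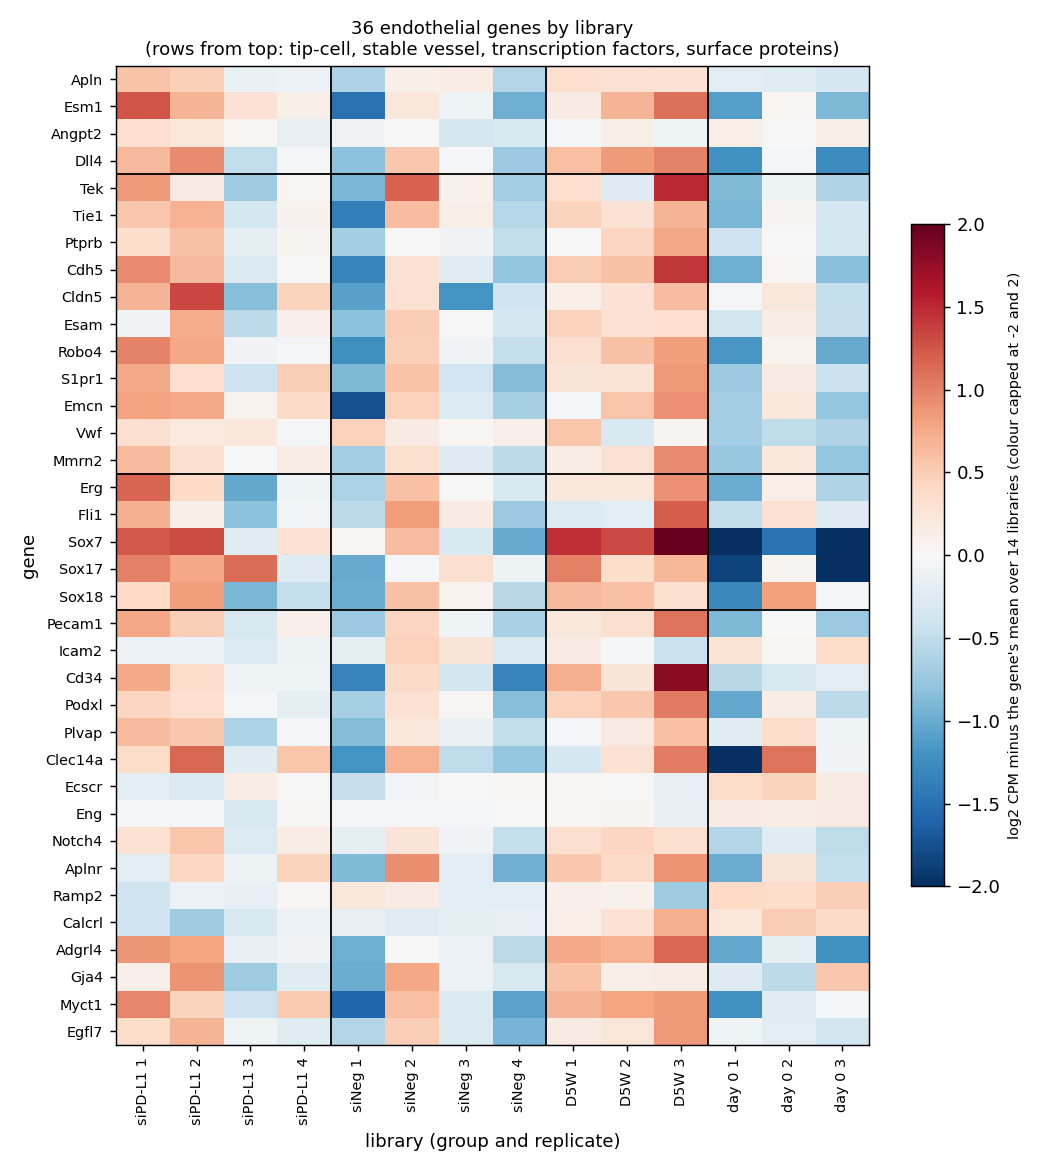
Level of the 36 endothelial genes (rows, grouped by role) in each of 14 libraries (columns), as log2 CPM with each gene's mean over all libraries subtracted; red is above and blue below that mean. Most rows are red in the D5W libraries, D5W replicate 3 holds the highest value for 15 of 36 members, and siNeg replicate 1 the lowest for 14.

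D5W tumours at day 7 were compared with untreated tumours at day 0 to see how the vessel genes stood after a week of growth and a vehicle injection. Of 36 members, 10 were higher and 0 lower in D5W tumours, where 11.8% of all tested genes were called higher and 9.69% lower; 21.5% were called in either direction. The 10 were Sox7, Adgrl4, Vwf, Notch4, Dll4, Cdh5, Podxl, Cd34, Sox17 and Pecam1. The median log2 fold change of the members was 0.79, with 31 of 36 above 0, beside a median of 0.00 over all tested genes. In bulk tumour RNA, more or fewer endothelial cells and more or less RNA per cell cannot be told apart. The count of 10 fell to 4 without D5W replicate 3 and to 3 without day 0 replicate 1 or day 0 replicate 3. The share of all tested genes called in either direction fell as well. It was 11.7% without D5W replicate 3, 7.66% without day 0 replicate 1 and 13.8% without day 0 replicate 3. Groups stood apart with D5W higher for 20 members, against 21.5% of tested genes, and with D5W lower for 3 members (Ecscr, Eng and Ramp2), against 22.3%.

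Among the tip-cell genes, Dll4 (chr2:119325784-119335962, GRCm38, + strand), the Notch ligand of tip and arterial cells, rose in D5W tumours. Dll4 stood at 1.85, 2.27, 0.836 and 1.16 CPM in siPD-L1, 0.666, 1.71, 1.16 and 0.712 CPM in siNeg, 1.79, 2.12 and 2.35 CPM in D5W and 0.51, 1.16 and 0.495 CPM in day 0 libraries. Every D5W library was above every day 0 and every siNeg library, while the siPD-L1 libraries overlapped the D5W range. The log2 fold change against day 0 was 1.55 ± 0.43 for D5W (SE; edgeR adjusted p = 0.0219), 1.10 ± 0.41 for siPD-L1 (edgeR adjusted p = 0.0695) and 0.58 ± 0.41 for siNeg (edgeR adjusted p = 0.357). The D5W call was lost without D5W replicate 3, day 0 replicate 1 or day 0 replicate 3 (edgeR adjusted p = 0.0668, 0.102 and 0.0862). Its exons overlap those of the opposite-strand gene Gm14207 by 214 bases, so its reads are uncertain where strand was not used in counting.

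Esm1 (chr13:113209659-113218098, + strand), a secreted proteoglycan and a VEGF-induced tip-cell marker, stood at 8.0, 5.34, 4.09 and 3.63 CPM in siPD-L1, 1.19, 3.91, 3.17 and 1.7 CPM in siNeg, 3.77, 5.37 and 7.15 CPM in D5W and 1.56, 3.46 and 1.8 CPM in day 0 libraries. The siPD-L1 and D5W libraries were all above the day 0 libraries, and the siNeg libraries spanned the day 0 range. Its log2 fold change against day 0 was 1.26 ± 0.44 for D5W (edgeR adjusted p = 0.0534) and 1.22 ± 0.42 for siPD-L1 (edgeR adjusted p = 0.0503), neither of which passed the threshold.

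Apln (chrX:48025146-48034853, - strand), the apelin ligand that sprouting cells secrete, stood at 7.5, 6.99, 4.6 and 4.64 CPM in siPD-L1, 3.3, 5.44, 5.59 and 3.36 CPM in siNeg, 6.35, 6.24 and 6.17 CPM in D5W and 4.36, 4.25 and 3.98 CPM in day 0 libraries. The 3 D5W values lay close together and above all siNeg and day 0 values, with a log2 fold change of 0.58 ± 0.23 against day 0 (edgeR adjusted p = 0.0833). Angpt2 (chr8:18690263-18741562, - strand) stood at 28.8, 27.1, 23.6 and 20.4 CPM in siPD-L1, 21.9, 23.0, 18.2 and 18.5 CPM in siNeg, 22.4, 25.0 and 21.7 CPM in D5W and 25.1, 23.0 and 24.8 CPM in day 0 libraries. The D5W and day 0 libraries overlapped for Angpt2, with a log2 fold change of -0.08 ± 0.12 (edgeR adjusted p = 0.689). The siPD-L1 libraries spanned both ranges, and all siNeg libraries were below all day 0 libraries.

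The stable-vessel genes lay above 0 in D5W against day 0 for all 11 members, 2 of which were called, with a median log2 fold change of 0.83 and a range of 0.43 to 1.43. Cdh5 (chr8:104101625-104144511, + strand) stood at 9.29, 7.52, 3.92 and 4.85 CPM in siPD-L1, 1.92, 5.95, 4.04 and 2.78 CPM in siNeg, 6.83, 7.24 and 12.8 CPM in D5W and 2.45, 4.89 and 2.7 CPM in day 0 libraries. The D5W libraries were all above the day 0 and siNeg libraries, and D5W replicate 3 was the highest of 14. The log2 fold change of D5W against day 0 was 1.43 ± 0.43 (edgeR adjusted p = 0.0301), and the call was lost without D5W replicate 3, day 0 replicate 1 or day 0 replicate 3 (edgeR adjusted p = 0.16, 0.125 and 0.099) and with no low-count filter.

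Vwf (von Willebrand factor, a clotting protein that endothelium stores; chr6:125546774-125686679, + strand) showed another pattern. It stood at 43.3, 39.7, 40.4 and 34.2 CPM in siPD-L1, 47.6, 38.9, 35.6 and 37.4 CPM in siNeg, 51.0, 28.2 and 35.9 CPM in D5W and 21.7, 24.3 and 22.9 CPM in day 0 libraries. All 11 day 7 libraries were above all 3 day 0 libraries, and the 3 day 7 groups overlapped. Vwf rose against day 0 by a log2 fold change of 0.78 ± 0.16 in siPD-L1 (edgeR adjusted p = 0.0044), 0.80 ± 0.16 in siNeg (edgeR adjusted p = 0.00434) and 0.74 ± 0.17 in D5W tumours (edgeR adjusted p = 0.00872). It was called in each of these comparisons under every alternative that was run.

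The other 9 stable-vessel members were not called in any comparison. They are the angiopoietin receptor Tek, its partner Tie1, the phosphatase Ptprb that restrains Tek, the tight-junction protein Cldn5, the junction molecule Esam, the guidance receptor Robo4, the sphingosine-1-phosphate receptor S1pr1, the sialomucin Emcn and the matrix protein Mmrn2. Tek, the least abundant of the 9 per kilobase, averaged 0.31 ± 0.135 CPM in siPD-L1, 0.302 ± 0.215 CPM in siNeg, 0.442 ± 0.279 CPM in D5W and 0.192 ± 0.0552 CPM in day 0 libraries (SD, n = 4, 4, 3 and 3). Emcn averaged 1.78 ± 0.404 CPM in siPD-L1, 0.966 ± 0.557 CPM in siNeg, 1.78 ± 0.552 CPM in D5W and 0.976 ± 0.408 CPM in day 0 libraries (SD, n = 4, 4, 3 and 3). Both genes had their higher means in siPD-L1 or D5W tumours, within a spread that overlapped the other groups.

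**Figure D2:**
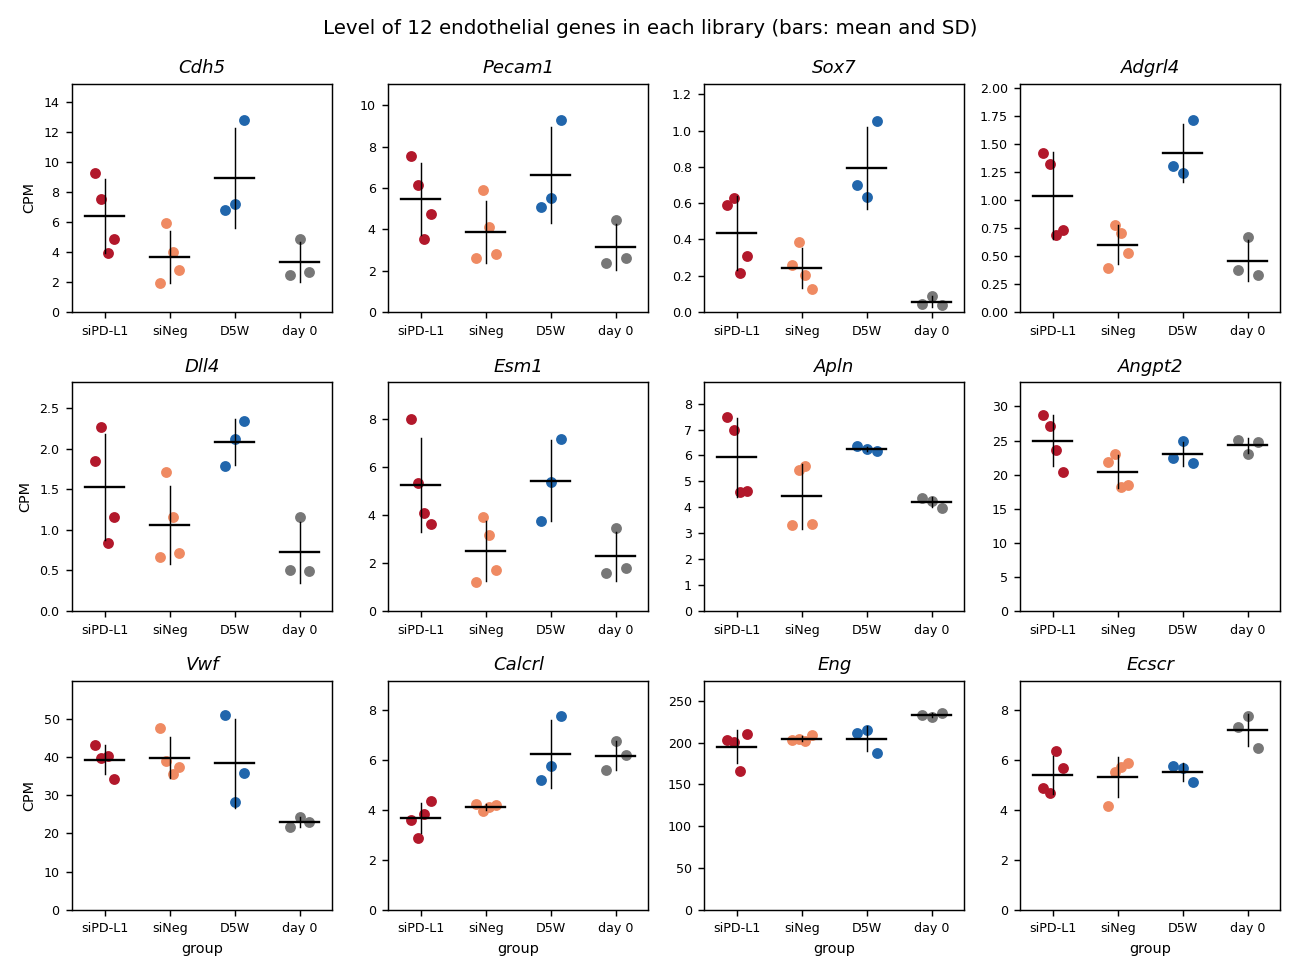
Level of 12 endothelial genes in CPM (linear axis from 0) in each library, by group; points are libraries, the horizontal bar is the group mean and the vertical bar its SD. Cdh5, Sox7, Adgrl4 and Dll4 stand higher in all D5W libraries than in all day 0 libraries, Vwf is higher in all day 7 libraries, and Calcrl is lower in all siPD-L1 and siNeg libraries than in D5W and day 0 libraries.

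Tip-cell and stable-vessel genes were then set against each other inside each library, as the mean log2 CPM of the 4 tip-cell genes minus that of the 11 stable-vessel genes. This difference averaged 1.63 in siPD-L1, 1.59 in siNeg, 1.60 in D5W and 1.60 in day 0 libraries, and single libraries lay between 1.39 and 1.82. Between groups it moved by 0.03 for siPD-L1 against D5W, -0.01 for siNeg against D5W, 0.00 for D5W against day 0 and 0.04 for siPD-L1 against siNeg, beside an SD of 0.173 between libraries of a group. Both lists moved by like amounts, with medians of 0.92 for tip-cell and 0.83 for stable-vessel genes in D5W against day 0, and -0.74 and -0.74 in siNeg against D5W. Leaving Angpt2 out of the tip-cell genes changed this: the difference then moved by 0.31 for D5W against day 0, 0.25 for siPD-L1 against day 0 and -0.20 for siNeg against D5W, each larger than that SD. These values are a description of 4 and 11 genes with no test.

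**Figure D3:**
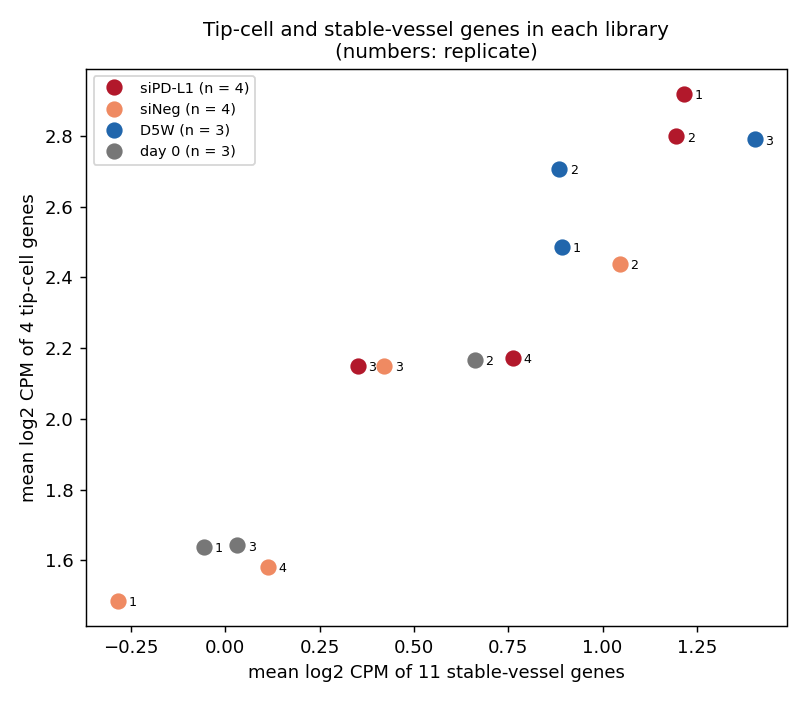
Mean log2 CPM of the 4 tip-cell genes (vertical axis) against that of the 11 stable-vessel genes (horizontal axis); each point is a library, coloured by group and numbered by replicate. Libraries high in the one list are high in the other, the D5W libraries lie to the upper right of all day 0 libraries, and the 4 siNeg libraries spread from the lowest corner to the D5W range.

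The start-site windows of members were searched for the ETS letters CAGGAAG, on both strands, since Erg and Fli1 are ETS factors. RefSeq (GRCm38.p6) gave windows, 250 bases before to 50 after a gene's start, for 18 of the 36 members, 22 windows in all. The letters were present in 9 of the 22 windows (40.9%). They were present in 4359 of 32851 windows of all genes (13.3%). Members with a match were Apln, Calcrl, Cd34, Egfl7, Emcn, Erg, Notch4 and Robo4. The shorter letters AGGAAG, which the longer ones contain, were in 59.1% of the members' windows and 35.4% of all windows, the SOX letters AACAAT in 18.2% and 10.7%, and the RBPJ (Notch effector) letters TGGGAA in 18.2% and 25.6%. A match is a run of letters and no shown binding site. A tip-cell and a stable-vessel gene with the longer letters CAGGAAG, and one of each without, are shown so that both kinds can be read side by side. The match is in capitals, as CAGGAAG or as its reverse complement CTTCCTG, at -113 for Apln (chrX:48034804-48035103, - strand) and at -50 for Robo4 (chr9:37401722-37402021, + strand). The windows of Dll4 (chr2:119325534-119325833, + strand) and Tie1 (chr4:118489800-118490099, - strand) hold no match to these longer letters. The Tie1 window does hold the shorter letters AGGAAG, read on both strands, and the Dll4 window does not.
Apln: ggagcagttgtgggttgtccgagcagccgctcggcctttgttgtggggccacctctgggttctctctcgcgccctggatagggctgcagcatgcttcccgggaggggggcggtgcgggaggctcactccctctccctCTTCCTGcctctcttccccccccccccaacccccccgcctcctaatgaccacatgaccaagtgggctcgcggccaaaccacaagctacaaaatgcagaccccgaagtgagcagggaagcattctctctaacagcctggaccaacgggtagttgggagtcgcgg
Robo4: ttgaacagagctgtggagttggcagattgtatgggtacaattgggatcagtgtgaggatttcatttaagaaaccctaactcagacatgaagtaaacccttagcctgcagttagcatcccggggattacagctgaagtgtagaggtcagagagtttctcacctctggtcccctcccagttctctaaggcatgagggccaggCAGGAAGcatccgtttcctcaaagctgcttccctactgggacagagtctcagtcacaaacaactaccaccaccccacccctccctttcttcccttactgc
Dll4: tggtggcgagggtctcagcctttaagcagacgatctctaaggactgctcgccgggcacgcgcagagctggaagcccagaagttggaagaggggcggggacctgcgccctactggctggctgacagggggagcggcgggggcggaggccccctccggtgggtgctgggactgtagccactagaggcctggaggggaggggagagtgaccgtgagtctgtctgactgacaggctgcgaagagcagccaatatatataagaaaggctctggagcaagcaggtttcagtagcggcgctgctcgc
Tie1: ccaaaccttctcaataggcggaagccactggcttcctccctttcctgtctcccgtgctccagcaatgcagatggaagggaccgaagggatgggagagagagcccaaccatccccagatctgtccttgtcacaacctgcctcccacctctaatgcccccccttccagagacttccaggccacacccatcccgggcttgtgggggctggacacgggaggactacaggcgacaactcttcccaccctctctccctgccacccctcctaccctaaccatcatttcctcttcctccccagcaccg

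The transcription factors held the largest change of the list. Sox7 (chr14:63943673-63950732, + strand), a SoxF factor of arterial and sprouting endothelium, stood at 0.59, 0.626, 0.215 and 0.308 CPM in siPD-L1, 0.261, 0.387, 0.204 and 0.126 CPM in siNeg, 0.698, 0.632 and 1.05 CPM in D5W and 0.0437, 0.0905 and 0.0381 CPM in day 0 libraries. All 11 day 7 libraries were above all day 0 libraries, and all D5W libraries were above all siPD-L1 and siNeg libraries. Its log2 fold change against day 0 was 2.94 ± 0.54 in siPD-L1 (edgeR adjusted p = 0.00215), 2.11 ± 0.56 in siNeg (edgeR adjusted p = 0.0176) and 3.81 ± 0.54 in D5W tumours (edgeR adjusted p = 0.000493). The siNeg call was lost without day 0 replicate 1 or day 0 replicate 3 (edgeR adjusted p = 0.0838 and 0.0789). The day 0 libraries held 3, 5 and 3 Sox7 counts. From summed counts the ratio to day 0 was 7.93 in siPD-L1 (exact 95% interval 4.28 to 16.3), 4.44 in siNeg (2.34 to 9.29) and 14.5 in D5W tumours (7.9 to 29.4), intervals that cover counting error only.

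Sox7 also stood apart relative to Cdh5 in the same library. The ratio of Sox7 to Cdh5 CPM was 0.0548 to 0.0832 in siPD-L1, 0.0452 to 0.136 in siNeg and 0.0823 to 0.102 in D5W libraries, all above the 0.0141 to 0.0185 of the day 0 libraries. The ratio of Dll4 to Cdh5 was 0.199 to 0.301 in siPD-L1, 0.256 to 0.347 in siNeg, 0.184 to 0.293 in D5W and 0.183 to 0.237 in day 0 libraries. For Dll4 the day 0 libraries overlapped the siPD-L1 and D5W libraries, and lay below all siNeg libraries.

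Sox17 (chr1:4490931-4497354, - strand), the SoxF factor of arteries, was rare. It stood at 0.211, 0.181, 0.228 and 0.0879 CPM in siPD-L1, 0.0522, 0.104, 0.132 and 0.0977 CPM in siNeg, 0.213, 0.135 and 0.167 CPM in D5W and 0.0292, 0.109 and 0.0254 CPM in day 0 libraries. D5W libraries were all above day 0 libraries, and siPD-L1 libraries overlapped them through siPD-L1 replicate 4 and day 0 replicate 2. The log2 fold change against day 0 was 1.77 ± 0.53 in siPD-L1 (edgeR adjusted p = 0.0278) and 1.72 ± 0.55 in D5W tumours (edgeR adjusted p = 0.0381). The 3 day 0 libraries held 10 Sox17 counts in all, and 804 bases of its exons overlap the opposite-strand gene Gm37587. The siPD-L1 call was lost without siPD-L1 replicate 1, siPD-L1 replicate 3, day 0 replicate 1 or day 0 replicate 3 (edgeR adjusted p = 0.0607 to 0.135). The D5W call was lost without D5W replicate 1, D5W replicate 3, day 0 replicate 1 or day 0 replicate 3 (0.073 to 0.158). It was also lost with no low-count filter, with the replicate number as a block and with only the groups compared. Erg, Fli1 and Sox18 were not called in any comparison: Erg averaged 0.579 ± 0.344 CPM in siPD-L1, 0.461 ± 0.173 CPM in siNeg, 0.653 ± 0.19 CPM in D5W and 0.348 ± 0.142 CPM in day 0 libraries (SD, n = 4, 4, 3 and 3).

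Of the surface genes, Pecam1 (chr11:106654217-106750628, - strand) stood at 7.54, 6.16, 3.53 and 4.73 CPM in siPD-L1, 2.63, 5.92, 4.13 and 2.82 CPM in siNeg, 5.1, 5.51 and 9.3 CPM in D5W and 2.36, 4.43 and 2.63 CPM in day 0 libraries. D5W libraries were above day 0 libraries, with a log2 fold change of 1.08 ± 0.36 (edgeR adjusted p = 0.0444), and siPD-L1 and siNeg libraries overlapped both. The Pecam1 call was lost without D5W replicate 3, day 0 replicate 1 or day 0 replicate 3 (edgeR adjusted p = 0.212, 0.168 and 0.132), with no low-count filter, with only the groups compared and after removing a trend with GC and length. Adgrl4, an adhesion G protein-coupled receptor of sprouting vessels, stood at 1.42, 1.32, 0.684 and 0.732 CPM in siPD-L1, 0.392, 0.773, 0.708 and 0.53 CPM in siNeg, 1.3, 1.24 and 1.71 CPM in D5W and 0.379, 0.669 and 0.33 CPM in day 0 libraries. Both siPD-L1 and D5W libraries stood wholly above day 0 libraries. Adgrl4 rose against day 0 by 1.19 ± 0.34 on the log2 scale in siPD-L1 (edgeR adjusted p = 0.0226) and by 1.64 ± 0.36 in D5W tumours (edgeR adjusted p = 0.00669). The D5W call stood under every alternative that was run. The siPD-L1 call was lost without siPD-L1 replicate 1, day 0 replicate 1 or day 0 replicate 3 (0.0647, 0.106 and 0.1). It was also lost after removing a trend with GC and length.

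Cd34, a sialomucin of vessel and progenitor cells that some fibroblasts also make, stood at 3.85, 2.89, 2.14 and 2.14 CPM in siPD-L1, 0.901, 2.96, 1.76 and 0.893 CPM in siNeg, 3.76, 2.71 and 7.92 CPM in D5W and 1.55, 1.81 and 1.93 CPM in day 0 libraries. The D5W libraries were above day 0 with 1 library, replicate 3, far above the rest, and the log2 fold change was 1.44 ± 0.45 (edgeR adjusted p = 0.0353). Without D5W replicate 3 its log2 fold change was 0.88 (edgeR adjusted p = 0.206), and the call was also lost without any 1 of the day 0 libraries (edgeR adjusted p = 0.0779 to 0.126). The Cd34 call was lost as well with no low-count filter and after removing a trend with GC and length. Podxl, a sialomucin of the vessel lumen, stood at 1.6, 1.49, 1.16 and 1.05 CPM in siPD-L1, 0.745, 1.47, 1.2 and 0.656 CPM in siNeg, 1.63, 1.72 and 2.44 CPM in D5W and 0.583, 1.32 and 0.825 CPM in day 0 libraries. The D5W libraries were above those of all other groups, and the log2 fold change against day 0 was 1.09 ± 0.33 (edgeR adjusted p = 0.0315). That call was lost without D5W replicate 3, day 0 replicate 1 or day 0 replicate 3 (0.111, 0.143 and 0.0975). It was also lost with only the groups compared and after removing a trend with GC and length.

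Notch4, the Notch receptor of endothelium, stood at 2.4, 2.86, 1.62 and 2.17 CPM in siPD-L1, 1.71, 2.33, 1.87 and 1.41 CPM in siNeg, 2.45, 2.62 and 2.44 CPM in D5W and 1.3, 1.65 and 1.38 CPM in day 0 libraries. The D5W libraries were above all siNeg and day 0 libraries, and 1 siPD-L1 library lay below the highest day 0 library. Notch4 rose against day 0 by 0.65 ± 0.21 on the log2 scale in siPD-L1 (edgeR adjusted p = 0.0363) and by 0.80 ± 0.22 in D5W tumours (edgeR adjusted p = 0.0197). The D5W call was lost without day 0 replicate 1 or day 0 replicate 3 (edgeR adjusted p = 0.0892 and 0.0633). The siPD-L1 call was lost without any 1 of the day 0 libraries or siPD-L1 replicate 1, 2 or 4 (0.0514 to 0.146). It was also lost with scaling by library totals, with no low-count filter and with only the groups compared.

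Calcrl, Ramp2, Ecscr and Eng ran the other way, lower than at day 0 in 1 or both siRNA groups. Calcrl (chr2:84330626-84425411, - strand), the receptor that pairs with Ramp2 to bind adrenomedullin, stood at 3.58, 2.88, 3.82 and 4.36 CPM in siPD-L1, 4.21, 3.96, 4.1 and 4.2 CPM in siNeg, 5.18, 5.73 and 7.75 CPM in D5W and 5.58, 6.73 and 6.17 CPM in day 0 libraries. All 8 siPD-L1 and siNeg libraries were below all D5W and all day 0 libraries, and the D5W and day 0 libraries overlapped. Against day 0, Calcrl fell by 0.75 ± 0.15 on the log2 scale in siPD-L1 (edgeR adjusted p = 0.0044) and by 0.58 ± 0.15 in siNeg tumours (edgeR adjusted p = 0.0189), and its log2 fold change in D5W tumours was 0.01 ± 0.17 (edgeR adjusted p = 0.961). The siPD-L1 call stood under every alternative that was run. The siNeg call was lost without day 0 replicate 2 or day 0 replicate 3 (edgeR adjusted p = 0.0803 and 0.0537) and with scaling by library totals.

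Ramp2, the partner of Calcrl, stood at 5.18, 6.32, 6.14 and 6.93 CPM in siPD-L1, 7.99, 7.67, 5.9 and 5.86 CPM in siNeg, 7.34, 7.26 and 4.18 CPM in D5W and 9.01, 8.88 and 9.61 CPM in day 0 libraries. Every day 7 library was below every day 0 library. The log2 fold change against day 0 was -0.58 ± 0.18 in siPD-L1 (edgeR adjusted p = 0.0328), -0.42 ± 0.18 in siNeg (edgeR adjusted p = 0.118) and -0.55 ± 0.19 in D5W tumours (edgeR adjusted p = 0.0547). Ramp2 shares 1103 exon bases with the same-strand gene Vps25, so its count is uncertain. The siPD-L1 call was lost without any 1 of the day 0 libraries or siPD-L1 replicate 1 or 3 (edgeR adjusted p = 0.0602 to 0.0977). It was also lost with scaling by library totals, with the replicate number as a block and after removing a trend with GC and length.

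Ecscr, an endothelial surface regulator of VEGF signalling, stood at 4.88, 4.66, 6.34 and 5.68 CPM in siPD-L1, 4.15, 5.5, 5.72 and 5.89 CPM in siNeg, 5.77, 5.69 and 5.12 CPM in D5W and 7.33, 7.74 and 6.48 CPM in day 0 libraries. Eng (chr2:32646595-32682669, + strand) stood at 203, 201, 166 and 210.0 CPM in siPD-L1, 203, 205, 202 and 209 CPM in siNeg, 212, 215 and 188 CPM in D5W and 233, 231 and 236 CPM in day 0 libraries. For both genes every day 7 library was below every day 0 library. Ecscr fell by 0.41 ± 0.14 on the log2 scale in siPD-L1 (edgeR adjusted p = 0.0488) and by 0.43 ± 0.14 in siNeg tumours (edgeR adjusted p = 0.0451), and Eng fell by 0.26 ± 0.08 in siPD-L1 tumours (edgeR adjusted p = 0.0268). Endoglin is also made by cells other than endothelium, such as macrophages and fibroblasts. Which cells supplied it here, the tumour cells included, was not tested. The Eng call was lost without any 1 of the day 0 libraries (edgeR adjusted p = 0.0691 to 0.0888). The siPD-L1 call of Ecscr was lost without any 1 of the day 0 libraries or siPD-L1 replicate 1, 2 or 4 (0.0595 to 0.161), and its siNeg call without any 1 of the day 0 or siNeg libraries (0.0563 to 0.153). These 3 calls were also lost when library totals alone set the scale and after removing a trend with GC and length. Both Ecscr calls were lost with no low-count filter and with the replicate number as a block, and its siPD-L1 call with only the groups compared. Eng and Ecscr overlap an opposite-strand gene, Fpgs and 1700066B19Rik, by 61 and 62 bases.

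The other 7 genes of this role were not called in any comparison. They were Icam2, the fenestral-diaphragm protein Plvap, Clec14a, the apelin receptor Aplnr, the arterial gap-junction protein Gja4, Myct1 and the secreted factor Egfl7. Plvap, the most abundant of these per kilobase, averaged 6.16 ± 2.25 CPM in siPD-L1, 4.44 ± 1.42 CPM in siNeg, 6.45 ± 1.45 CPM in D5W and 5.43 ± 1.19 CPM in day 0 libraries (SD, n = 4, 4, 3 and 3). Aplnr averaged 0.457 ± 0.107 CPM in siPD-L1, 0.388 ± 0.264 CPM in siNeg, 0.626 ± 0.117 CPM in D5W and 0.328 ± 0.146 CPM in day 0 libraries (SD, n = 4, 4, 3 and 3). Egfl7 shares exon bases with Gm20532 and Mir126a on its own strand, so its count is uncertain.

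In the siRNA groups set against day 0, siPD-L1 tumours had 5 members called higher and 4 lower, where 11.5% of tested genes were higher and 10.4% lower. The siNeg tumours had 2 higher and 2 lower, where 10.5% were higher and 7.91% lower. The higher members were Sox7, Sox17, Vwf, Adgrl4 and Notch4 in siPD-L1 and Sox7 and Vwf in siNeg tumours. The median log2 fold change of the 36 members against day 0 was 0.64 in siPD-L1, with 31 members above 0, and 0.10 in siNeg, with 21 above 0. Over all tested genes the medians were 0.01 and 0.01. All siPD-L1 libraries stood above all day 0 libraries for 6 members (17.0% of tested genes) and below them for 5 (18.0%). All siNeg libraries stood above for 2 (20.6%) and below for 5 (21.1%). The siPD-L1 count fell to 3 without day 0 replicate 1 or day 0 replicate 3 and to 4 without siPD-L1 replicate 1. The share of all tested genes called fell from 21.9% to 9.38%, 14.9% and 15.2% in the same order. The siNeg count fell to 1 without day 0 replicate 3 and to 2 without day 0 replicate 1 or day 0 replicate 2. The share of all tested genes called fell there from 18.4% to 11.3%, 7.27% and 9.97%.

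Both siRNA groups were compared with D5W to show how the vessel genes stood after polymer, PTX and siRNA relative to vehicle at the same day. In siPD-L1 against D5W, 0 members were called by edgeR, where 0.0292% of tested genes were. Of the members, 2 had an unadjusted edgeR p under 0.05, both lower (Sox7 and Calcrl), beside 1375 of 17141 tested genes, 820 of them lower. DESeq2 called 1 and limma voom 0, beside 1.07% and 0.0758% of tested genes. In siNeg against D5W, 0 members were called by edgeR, where 0.105% of tested genes were. Of the members, 16 had an unadjusted edgeR p under 0.05, all lower, beside 2562 of 17141 tested genes, 1386 of them lower. DESeq2 called 4 and limma voom 2, beside 2.68% and 1.79% of tested genes. With both siRNA groups averaged against D5W, edgeR called 0 members, where 0.251% of tested genes were called. Of the members, 8 had an unadjusted edgeR p under 0.05, all lower, beside 2052 of 17141 tested genes, 1218 of them lower. DESeq2 called 2 and limma voom 1, beside 2.13% and 0.846% of tested genes.

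The members nonetheless lay mostly below 0 in these comparisons. The median log2 fold change was -0.18 for siPD-L1 against D5W, with 30 of 36 below 0, and -0.69 for siNeg against D5W, with 33 of 36 below 0. Over all tested genes the medians were 0.01 and 0.02. All siPD-L1 libraries stood below all D5W libraries for Calcrl, Podxl and Sox7, 3 of 36 members beside 3.09% of tested genes, and above them for 0 members beside 2.65%. All siNeg libraries stood below all D5W libraries for 10 members (Adgrl4, Apln, Calcrl, Cdh5, Dll4, Myct1, Notch4, Podxl, Sox17 and Sox7), beside 7.33% of tested genes, and above them for 0 members beside 7.01%. The members are counted together because they were listed as markers of 1 cell type, so they cannot be taken as independent of each other. They did not all move together. The ratio of Vwf to Cdh5 CPM ran from 2.81 in D5W replicate 3 to 24.8 in siNeg replicate 1.

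By role, the median in siPD-L1 against D5W was -0.06 for tip-cell genes, -0.19 for stable-vessel genes, -0.33 for transcription factors and -0.20 for the other surface genes. In siNeg against D5W it was -0.74 for tip-cell genes, -0.74 for stable-vessel genes, -0.63 for transcription factors and -0.65 for the other surface genes. The closest to a call was Calcrl, whose log2 fold change was -0.76 ± 0.15 for siPD-L1 against D5W (edgeR adjusted p = 0.0809), -0.59 ± 0.15 for siNeg against D5W (edgeR adjusted p = 0.122) and -0.68 ± 0.13 for both groups averaged (edgeR adjusted p = 0.0508). For Cdh5 the log2 fold change was -0.48 ± 0.38 for siPD-L1 against D5W (edgeR adjusted p = 0.847) and -1.29 ± 0.39 for siNeg against D5W (edgeR adjusted p = 0.17). Calcrl was thus low in both siRNA groups with little spread, while Cdh5 was spread widely within each.

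**Figure D4:**
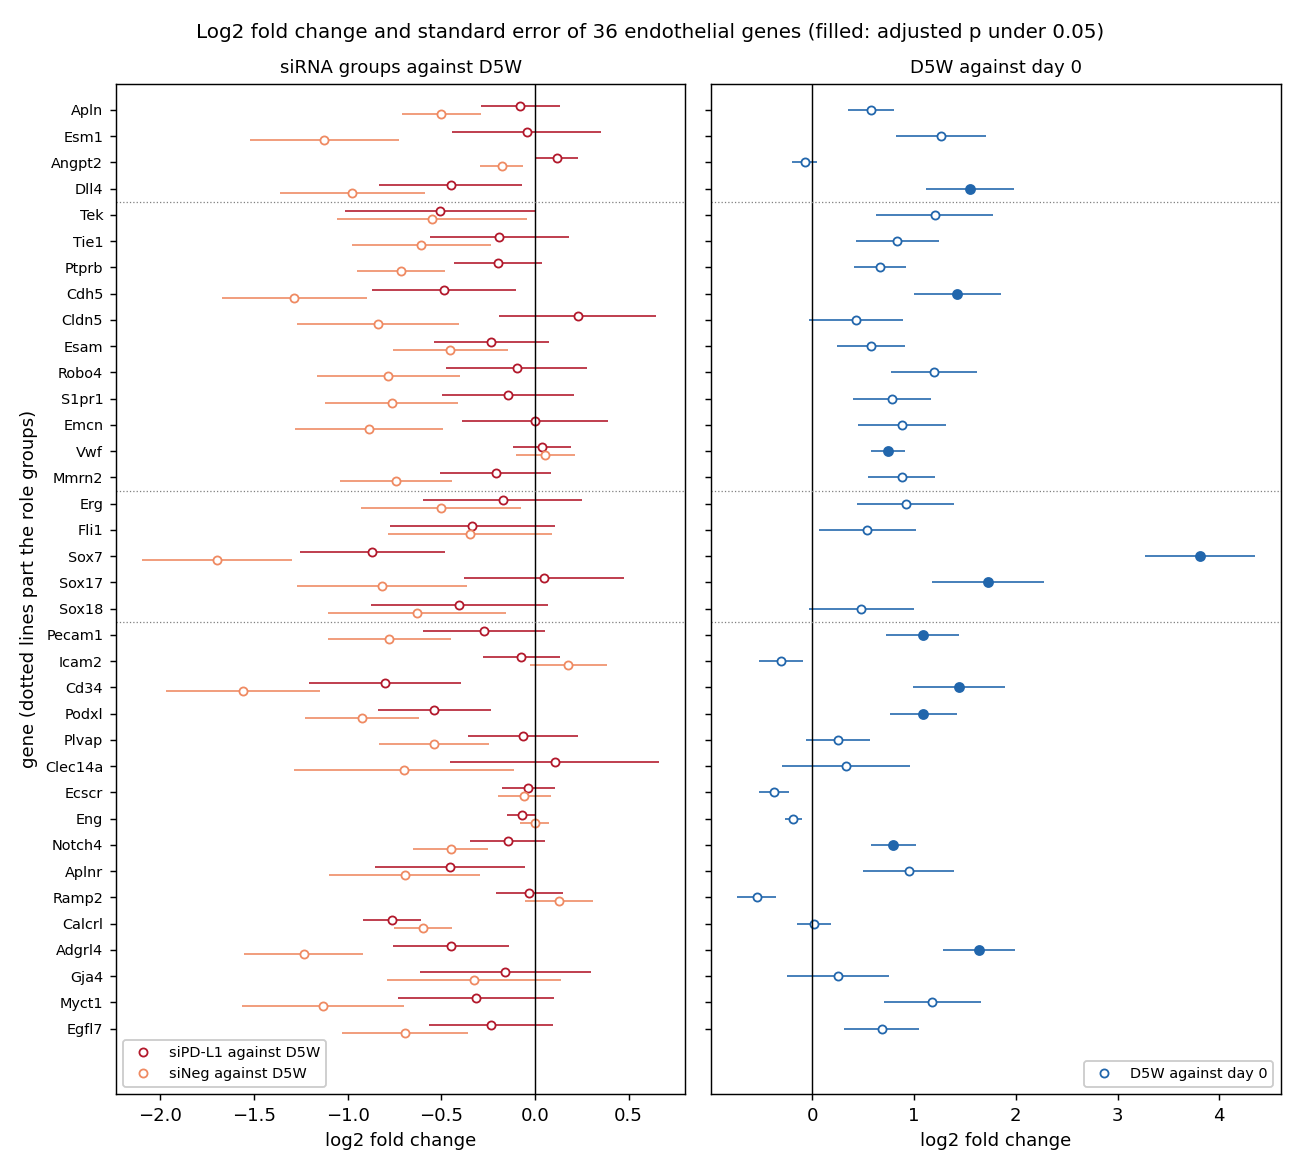
Log2 fold change of each of 36 endothelial genes with its SE, for D5W against day 0 in 1 panel and for siPD-L1 and siNeg against D5W in the other. In D5W against day 0, 31 of 36 points lie above 0; in siPD-L1 and siNeg against D5W, 30 and 33 of 36 lie below 0 and edgeR called none.

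siPD-L1 against siNeg compares the siRNA alone, on the same polymer and PTX. edgeR called 0 members, and 0.0% of tested genes. There were 8 members with an unadjusted edgeR p under 0.05, all higher in siPD-L1 tumours, beside 1471 of 17141 tested genes, 747 of them higher. DESeq2 and limma voom called 0 each, beside 0.338% and 0.0292% of tested genes. The median log2 fold change of the members was 0.44, with 31 of 36 above 0, beside a median of -0.01 over all tested genes, and the groups overlapped for every member, where 2.55% of tested genes stood apart with siPD-L1 higher and 3.19% with siPD-L1 lower. Esm1 had the largest log2 fold change of the tip-cell genes, 1.08 ± 0.38 (edgeR adjusted p = 0.523), followed by Dll4 with 0.52 ± 0.36 (edgeR adjusted p = 0.68), Apln with 0.42 ± 0.20 (edgeR adjusted p = 0.582) and Angpt2 with 0.29 ± 0.11 (edgeR adjusted p = 0.527). The mean log2 CPM of the 36 members was 1.08, 1.05, 0.35 and 0.64 in the siPD-L1 libraries and -0.10, 0.95, 0.47 and 0.07 in the siNeg libraries, so siNeg replicate 2 stood with the siPD-L1 libraries and siNeg replicates 1 and 4 below all of them.

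The growth factors and receptors around these genes were read from lists that hold no member. Of 17 genes of the VEGF and Notch axis, 5 were called higher and 0 lower in siPD-L1 against day 0, 2 higher and 1 lower in siNeg against day 0, and 5 higher and 2 lower in D5W against day 0. Over all tested genes 11.5% were higher and 10.4% lower in siPD-L1, 10.5% and 7.91% in siNeg, and 11.8% and 9.69% in D5W tumours. In D5W tumours 2 VEGF receptors rose against day 0, Kdr (VEGFR2) by 1.49 ± 0.38 on the log2 scale (edgeR adjusted p = 0.0139) and Flt1 (VEGFR1) by 1.32 ± 0.42 (edgeR adjusted p = 0.0386). The log2 fold change of Flt4 (VEGFR3) against day 0 was -0.31 ± 0.15 in D5W tumours (edgeR adjusted p = 0.139), and in siNeg tumours Flt4 fell by 0.43 ± 0.14 (edgeR adjusted p = 0.0369). In D5W tumours against day 0 the arterial ephrin Efnb2 rose by 1.08 ± 0.23 (edgeR adjusted p = 0.00553). The ligand Vegfa fell in D5W tumours against day 0 by 0.38 ± 0.10 (edgeR adjusted p = 0.0136). Vegfa averaged 350.0 ± 9.44 CPM in siPD-L1, 367 ± 37.0 CPM in siNeg, 255 ± 29.1 CPM in D5W and 332 ± 22.7 CPM in day 0 libraries (SD, n = 4, 4, 3 and 3). Vegfa was the 1 gene of these lists called against D5W, higher in siNeg by 0.53 ± 0.09 (edgeR adjusted p = 0.0386). For siPD-L1 it was 0.45 ± 0.09 (edgeR adjusted p = 0.0736). Kdr averaged 3.91 ± 1.37 CPM in siPD-L1, 2.78 ± 1.27 CPM in siNeg, 4.74 ± 1.15 CPM in D5W and 1.69 ± 0.477 CPM in day 0 libraries (SD, n = 4, 4, 3 and 3).

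Of 12 partner genes of the Tie, apelin, adrenomedullin, BMP and S1P pathways, 2 were higher and 1 lower in siPD-L1, 3 higher and 1 lower in siNeg, and 3 higher and 2 lower in D5W tumours against day 0. The shares over all tested genes, for this and the next lists, were 11.5% higher and 10.4% lower in siPD-L1 tumours. They were 10.5% and 7.91% in siNeg and 11.8% and 9.69% in D5W tumours. Adm, the adrenomedullin ligand of Calcrl and Ramp2, fell against day 0 by 0.63 ± 0.12 on the log2 scale in siPD-L1 (edgeR adjusted p = 0.00283), by 0.80 ± 0.12 in siNeg (edgeR adjusted p = 0.000656) and by 1.26 ± 0.13 in D5W tumours (edgeR adjusted p = 4.65e-05). It averaged 34.9 ± 3.27 CPM in siPD-L1, 30.9 ± 2.67 CPM in siNeg, 22.5 ± 4.51 CPM in D5W and 54.0 ± 4.34 CPM in day 0 libraries (SD, n = 4, 4, 3 and 3). Id3, a target of BMP signalling, rose by 1.85 ± 0.40 in siPD-L1 (edgeR adjusted p = 0.00554), 1.31 ± 0.40 in siNeg (edgeR adjusted p = 0.0339) and 1.69 ± 0.41 in D5W tumours (edgeR adjusted p = 0.0121). Of 12 other tip-cell genes, 1 was higher and 1 lower in siPD-L1 (Lama4 and Unc5b), 1 higher and 0 lower in siNeg (Cxcr4), and 1 higher and 1 lower in D5W tumours (Nid2 and Adamts4) against day 0. Of 24 other tested endothelial identity genes, 3 were higher and 3 lower in siPD-L1, 2 higher and 2 lower in siNeg, and 5 higher and 1 lower in D5W tumours. Klf4, a shear-responsive factor that many cell types induce, rose by 4.16 ± 0.24 on the log2 scale in D5W tumours (edgeR adjusted p = 7.05e-07).

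The 4 tested genes of activated endothelium, adhesion molecules that capture leukocytes, were all called higher in D5W against day 0, beside 11.8% of tested genes. Selp rose by 2.04 ± 0.68 on the log2 scale (edgeR adjusted p = 0.0447), Vcam1 by 1.53 ± 0.36 (edgeR adjusted p = 0.0106) and Icam1 by 1.41 ± 0.45 (edgeR adjusted p = 0.0372). Selp was rare, at 0.0903 to 0.488 CPM in D5W and 0.0292 to 0.109 CPM in day 0 libraries, and those groups overlapped. Sele (E-selectin) had 9, 12, 6 and 2 counts in siPD-L1, 2, 12, 7 and 3 counts in siNeg, 27, 11 and 44 counts in D5W and 0 counts in all 3 day 0 libraries. Against a floor of 3 counts per day 0 library (0.0454 CPM on average), the mean of Sele was 2.2-fold that floor in siPD-L1 tumours. It was 1.82-fold in siNeg and 7.41-fold in D5W tumours. These are ratios of group means and not lower limits. Replicate 4 of siPD-L1 and replicates 1 and 4 of siNeg lay below the floor, at 0.0293, 0.0261 and 0.0419 CPM. In siPD-L1 and siNeg tumours Sele was the 1 gene of this list called against day 0. Vcam1 and Icam1 are also made by cells other than endothelium.

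Markers of other cell types were summed in each library beside these results. The 8 fibroblast markers, all tested, summed to 55.4 to 319 CPM in siPD-L1, 52.5 to 154 CPM in siNeg, 95.2 to 828 CPM in D5W and 105 to 141 CPM in day 0 libraries. The library at 828 CPM, D5W replicate 3, was the one with the highest value for 15 endothelial members. The 8 fibroblast markers lay above 0 in D5W against day 0 and below 0 in siPD-L1 and siNeg against D5W, all 8 each time. edgeR called 0 each time, with 7, 4 and 6 at an unadjusted p under 0.05. Of 17141 tested genes, 6318, 1375 and 2562 had such a p. The 6 leukocyte markers summed to 30.9 to 66.0 CPM in siPD-L1, 33.9 to 102 CPM in siNeg, 42.6 to 86.8 CPM in D5W and 52.4 to 61.0 CPM in day 0 libraries. The 11 markers of pericytes and smooth muscle, the cells that wrap vessels, of which 10 were tested, summed to 31.3 to 43.8 CPM in siPD-L1, 27.7 to 41.2 CPM in siNeg, 40.7 to 43.8 CPM in D5W and 37.6 to 46.2 CPM in day 0 libraries.

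The 5 red cell genes summed to 42.8 to 350.0 CPM in siPD-L1, 9.1 to 90.8 CPM in siNeg, 10.2 to 158 CPM in D5W and 127 to 983 CPM in day 0 libraries. The 7 platelet genes, of which 4 were tested, summed to 2.7 to 7.14 CPM in siPD-L1, 3.73 to 7.64 CPM in siNeg, 4.99 to 8.29 CPM in D5W and 6.04 to 8.34 CPM in day 0 libraries. The 6 lymphatic endothelial genes, of which 5 were tested, summed to 34.2 to 45.7 CPM in siPD-L1, 37.2 to 40.5 CPM in siNeg, 42.7 to 45.2 CPM in D5W and 39.3 to 41.6 CPM in day 0 libraries. The 6 skeletal muscle genes summed to 3.67 to 6.46 CPM in siPD-L1, 4.95 to 6.07 CPM in siNeg, 4.2 to 4.53 CPM in D5W and 5.19 to 7.22 CPM in day 0 libraries. No gene of these lists was at 0 in every library, and none of 4 adipocyte markers passed the filter. The part of these cell types in the endothelial results was not tested. Without D5W replicate 3, 4 members were called in D5W against day 0 instead of 10, and 11.7% of all tested genes instead of 21.5%. Without day 0 replicate 1 or day 0 replicate 3, 3 members were called, beside 7.66% and 13.8% of all tested genes.

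**Figure D5:**
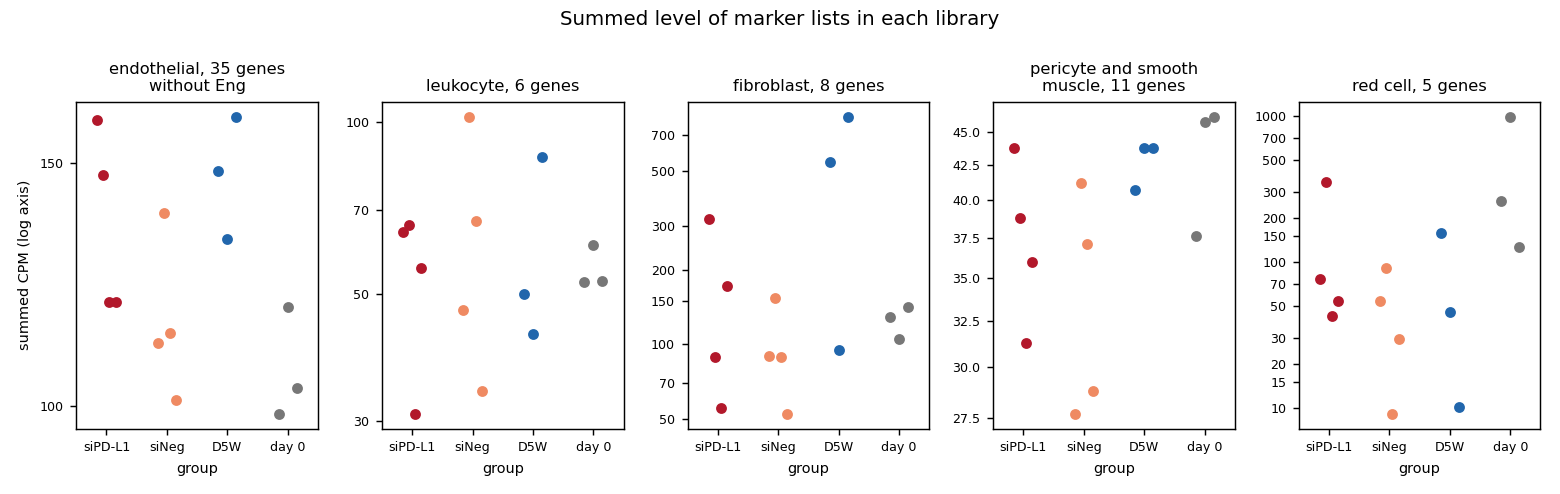
Summed CPM (log axis) of the 35 endothelial members other than Eng and of leukocyte, fibroblast, pericyte and smooth muscle, and red cell markers in each library, by group. The D5W libraries reach 828 CPM for fibroblast markers, the lowest library for pericyte markers is a siNeg one at 27.7 CPM, and the highest for red cell markers is a day 0 one at 983 CPM.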

How the data were processed

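Whole tumour RNA of 14 libraries was made with RNeasy kits and the TruSeq stranded protocol, per the labels' protocols. The deposited table holds unnormalized read counts for Ensembl genes. The submitters' processing notes name the genome build GRCm38 and the tools featureCounts, STAR, edgeR and FastQC (0.11.3). Which strand was counted, and the version of the other tools, is not given in the sources used here. All 14 count columns were matched to labels by name. Of 37409 genes, GENCODE M21 named 37386, and 23 kept no symbol.

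Counts were filtered with filterByExpr by group (17141 genes), scaled by TMM and fitted with edgeR 4.0.16 in R 4.3.3 (robust quasi-likelihood, 1 coefficient per group, all 14 libraries), with Benjamini-Hochberg adjustment over all tested genes at 0.05. The biological coefficient of variation was 16.6%. Log2 CPM used a prior count of 2. DESeq2 1.42.0 and limma voom 3.58.1 were alternatives, with other scalings, filters and left-out libraries. The fit was tested on simulated data. Values in every library are printed for the 4 tip-cell genes, Pecam1, Cdh5 and each member called in any comparison. Lists of VEGF and Notch, partner, other tip-cell, other identity and activated-endothelium genes and of cell type markers were counted. Members and lists were chosen with earlier results of these data known. Intervals cover counting error only, with a level of 95% and a floor of 3 counts per library. Foxf1, a listed identity gene, had no unique match and was not analysed here; Bmx and Ackr1 did not pass the filter.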

Additional observations from a re-analysis of the deposited data

Results flagged for a closer look

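Of 72 sets of 4 libraries tested, 36 members in siPD-L1 and 36 in siNeg tumours, 1 held a library far from the others. Icam2 stood at 1.13 CPM in siPD-L1 replicate 3, against 1.26 to 1.27 CPM in the other 3 siPD-L1 libraries, a gap of 0.927 of the whole range where the limit for 4 samples is 0.829. Chance alone marks about 1 such set in 20.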

How the results depend on the processing

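Of 23 calls of single members, 23 kept their direction under all alternatives run and 7 kept the call in all: Vwf in all 3 comparisons with day 0, Sox7 and Adgrl4 in D5W, and Sox7 and Calcrl in siPD-L1 against day 0. The count of members called in D5W against day 0 was 10, and became 6 with no low-count filter, 4 without D5W replicate 3 and siPD-L1 replicate 1 together, 16 with DESeq2 and 18 with limma voom, and 3 to 12 when single libraries were left out. The share of all tested genes called was 21.5%, and became 6.93%, 13.7%, 26.4% and 32.2% in the same order. Without single libraries it was 7.66% to 23.0%. In siPD-L1 against day 0 the member count was 9, and became 5 with scaling by library totals, 5 after removing a trend with GC and length, 16 with limma voom and 3 to 9 without single libraries. The share of all tested genes was 21.9%, then 12.1%, 15.1%, 31.5% and 9.38% to 24.0%. In siNeg against day 0 the member count was 4, and became 2 with library totals only, 7 with only the groups compared, 7 with limma voom and 1 to 3 without single libraries. The share of all tested genes was 18.4%, then 10.3%, 36.4%, 40.5% and 7.27% to 15.9%. In siPD-L1 against D5W the member count was 0, and 1 with library totals only, no filter or DESeq2 (0.35%, 0.117% and 1.07% of all tested genes). In siNeg against D5W the member count was 0, and became 1 with no filter, 4 with DESeq2 and 2 with limma voom (0.227%, 2.68% and 1.79% of all tested genes). With both siRNA groups against D5W the member count was 0, and became 2 with library totals only, no filter or DESeq2, 1 with CPM above 1, without mitochondrial and ribosomal RNA-like genes, after removing a trend with GC and length or with limma voom, and 0 to 1 without single libraries. The share of all tested genes called was 0.694%, 0.29%, 2.13%, 0.347%, 0.298%, 0.478% and 0.846% in the named fits, in the same order. siNeg and siPD-L1 against D5W and siPD-L1 against siNeg gave 0 without any single library. Leaving out Angpt2 moved the tip minus stable difference to 0.31 in D5W against day 0, -0.20 in siNeg against D5W and 0.25 in siPD-L1 against day 0; 106 of 109 alternatives stayed within 1 SD (0.173). Deviations of 19 same-numbered pairs of libraries correlated at -0.322 to 0.248, 6 of them over 0.1. Pairs with different numbers were not compared, so these values cannot decide whether replicate numbers pair the libraries. With the replicate block, counts were 11 in D5W, 10 in siPD-L1 and 3 in siNeg against day 0. The shares of all tested genes were 21.6%, 20.5% and 15.2% in the same order. In the 4 other comparisons the count was 0, beside at most 0.0292% of all tested genes. With 3 or 4 libraries a group and, for Sox17, 10 counts in all 3 day 0 libraries, the precision of the values is limited. The cause of these shifts was not tested.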
